A study of Mus musculus with 15 samples.

Results

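Liver macrophages carrying BRAF V600E were compared with liver macrophages labelled BRAF WT in mice of 1 month. The members were chosen by the tissue, genotype and age labels alone, and are 6 of the 15 samples of the series: VE 3, VE 4 and VE 5 (BRAF V600E) and WT 3, WT 4 and WT 5. All mice are described under a single set of alleles, namely Csf1rMeriCreMer, an LSL-V600E allele of BRAF and an LSL-YFP reporter at Rosa26. MeriCreMer is a tamoxifen-dependent Cre, here driven by the Csf1r promoter, and LSL is a stop cassette that Cre removes, so the mutation and the reporter are switched on only in cells that had active Cre and in their progeny. The time of induction, the share of recombined cells, the number of mice behind a sample and the strain are not stated in the labels. Cells positive for YFP and for the macrophage surface protein F4/80 were sorted, but the source labels write YFP+ for the V600E liver cells only, so a difference in the sort gate cannot be told apart from genotype. The series title places the study among somatic mutations of erythro-myeloid progenitors, the embryonic source of resident macrophages, and late-onset neurodegeneration. The liver samples are its resident macrophages outside the brain. Levels are in TPM, a length-scaled share of all transcripts in a library, and comparisons were made on log2(TPM + 1), a scale that understates the change of low genes. Since TPM keeps no read depth, values carry no counting interval, and a gene is only said to be listed at 0.

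Kupffer cells are the resident macrophages of the liver sinusoids. They clear bacteria, ageing red cells and debris from the portal blood, recycle haem iron, present antigen to T cells, and depend on CSF1 receptor signalling and on TGF-beta family signals. BRAF is a kinase of the RAS-RAF-MEK-ERK (MAPK) cascade. The V600E form signals without RAS, which induces feedback inhibitors such as the Dusp phosphatases and Sprouty proteins, ETS factors of the Etv family and cyclin D1, and in many primary cells also the inhibitors of the cell cycle that mark oncogene-induced senescence.

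All 6 samples carried the Kupffer markers that their label calls for. The summed level of 25 Kupffer markers was 20380 to 21511 TPM in the WT samples and 16253 to 20001 TPM in the VE samples. Clec4f, a lectin that marks Kupffer cells, was at 2252, 3040 and 2509 TPM in WT 3, 4 and 5 and at 1963, 2382 and 1734 TPM in VE 3, 4 and 5, whereas its mean in the brain macrophages of the same age was at most 0.04 TPM. Csf1r, whose promoter drives the Cre, was at 294, 358 and 341 TPM in WT and at 341, 359 and 348 TPM in VE, a log2 difference of 0.08 with a standard error (SE) of 0.13. RNA of other cells was present: hepatocyte markers summed to 2327 to 2759 TPM in WT and 1498 to 2498 TPM in VE, and 18 of the 19 measured hepatocyte markers had a lower fitted level in VE. Each sample except WT 5 was deposited as 2 repeat columns, which were averaged. Column 2 of VE 3 stood apart: its Hbb-bs, a beta globin, was at 3875 TPM against 19.1 TPM in column 1, and 10334 genes were listed at 0 against 14594 to 16695 in the other liver columns. Calls, and list counts that move by more than 1.5 times and more than 1 gene, are given with and without it. Nothing in the labels says that the samples of a group came from separate animals, so the p-values measure only the spread between these samples.

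At an adjusted p of 0.05, 16 of 11928 genes differed, which is 0.134% of those tested. Of these, 7 rose in VE (0.0587%) and 9 fell (0.0755%), and 6 of the 16 code for protein, namely Mmp9, Gpr34, Fam84a, Rgs1, Cd300ld2 and Il18bp. At an unadjusted p under 0.05 the count was 1261 genes (10.6%), 480 with the higher level in VE (4.02%) and 781 with the lower (6.55%). The 3 VE values lay wholly above the 3 WT values for 923 genes (7.74%) and wholly below for 1058 (8.87%), or for 6.34% and 8.2% with VE 3 from column 1 alone. The median log2 difference over all genes was -0.02. The list of 16 depended on single samples and on the repeat columns: 2 genes passed with VE 3 taken from column 1 alone, 0 passed without WT 3, WT 4 or VE 5, 1 without VE 4, and 5 without WT 5 or VE 3. It also depended on the filter of 1 TPM in 3 of the 6 samples, which a single genotype can meet. Gpr34, Fam84a, n-R5s89, Gm22615, Gm23713 and Mir1946a met it through VE alone. Snord89, Gm14558, ENSMUSG00000073854, Snora31 and Snora24 met it through WT alone. With no filter 0 genes passed. Below, genes are said to have risen or fallen only if they are among the 16, and all others are given as values. The shares of all genes given here are the reference for the counts by list.

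**Figure D1:**
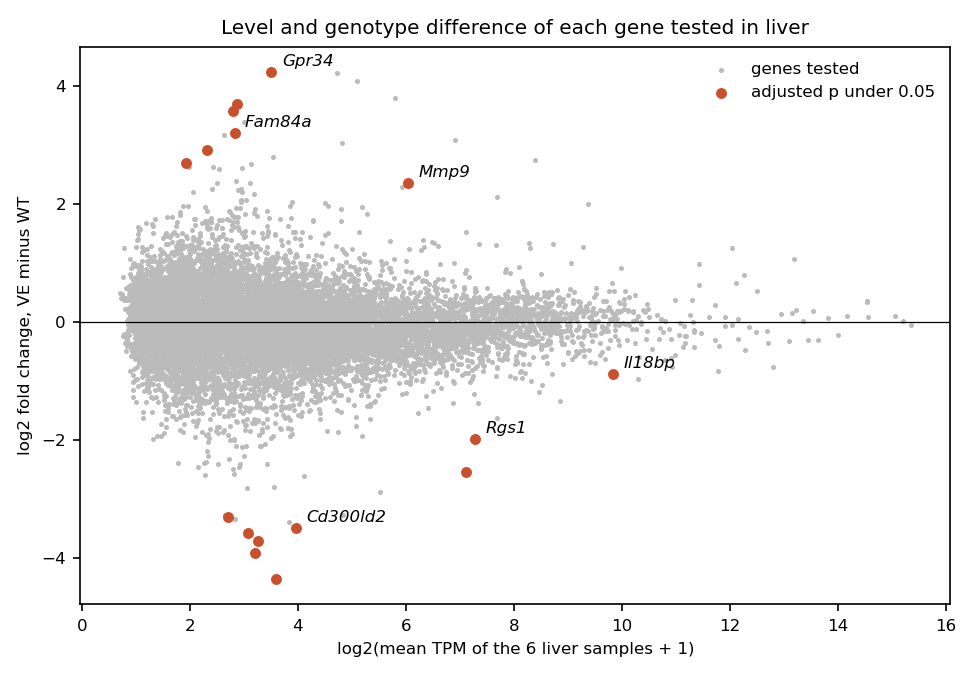
Each point is 1 of the 11928 genes tested, by the log2 of its mean TPM + 1 over the 6 liver samples (horizontal axis) and its log2 fold change, VE minus WT (vertical axis). The 16 genes past the adjusted threshold are large red points, and the 6 that code for protein are named.

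Mmp9, the gelatinase that macrophages and neutrophils use to degrade basement membrane collagen, gave the clearest rise. It was at 25.3, 20.6 and 16.3 TPM in WT 3, 4 and 5 and at 105, 126 and 96.6 TPM in VE 3, 4 and 5, that is 20.7 ± 4.47 TPM against 109 ± 15.03 TPM (SD, n = 3 each). The groups did not overlap, and all 6 VE columns lay above all WT columns. The log2 fold change was 2.35 (SE 0.23, adjusted p = 0.0119), and the adjusted p was 0.0346 with VE 3 from column 1 alone. The call was lost in 11 of 22 alternative analyses, in which the fold change stayed between 2.13 and 2.56. Mmp9 lies on chromosome 2, 164940780 to 164955850, plus strand (GRCm38, GENCODE M21, the annotation used for all positions of genes here). Neutrophils also make Mmp9. The other 13 neutrophil markers together came to 11.99 to 16.3 TPM in WT and 11.1 to 14.2 TPM in VE, and the part of neutrophils in the Mmp9 value was not tested further. In the brain macrophages of the same age, Mmp9 was at or under 0.0744 TPM in every column.

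Fam84a, a gene of little known function, rose from 0.0768, 0.576 and 0.403 TPM in WT to 17.7, 9.58 and 8.24 TPM in VE. The groups lay well apart, with VE 3 highest. The log2 fold change was 3.19 (SE 0.43, adjusted p = 0.0458; 0.0672 with VE 3 from column 1 alone), and the call was lost in 16 of 22 alternatives. Fam84a lies on chromosome 12, 14146830 to 14152054, minus strand, and was at or under 0.027 TPM in every brain column.

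Gpr34, a lysophosphatidylserine receptor that is a hallmark of microglia, rose from 0.0128, 0.321 and 0.0113 TPM in WT to 13.8, 28.8 and 19.3 TPM in VE. This was the largest fold change of the protein-coding calls, with log2 4.23 (SE 0.42) and an adjusted p of 0.0119, but it did not hold in every column. VE 3 was at 0.411 TPM in column 1 and at 27.2 TPM in column 2, and with column 1 alone the fold change was 3.10 and the adjusted p 0.506. The call was lost in 9 of 21 alternatives, with fold changes between 2.28 and 6.83. Gpr34 lies on chromosome X, 13632089 to 13640858, plus strand. As a whole the microglia markers had no common direction: of 16, 12 were tested, 5 had a fitted difference above 0 and 7 below, and the median was -0.13. A subset of 8 had a mean of at least 50 TPM in the brain samples of 1 month and under 1 TPM in liver WT, a criterion that was chosen after the values were seen and that keeps genes with room to be higher in VE: Gpr34, Siglech, Syngr1, Fcrls, Serpine2, Olfml3, Slc2a5 and Sall1. Their median level, as a percentage of each gene's own brain mean, was 0.323% in column 2 of VE 3, 0.266% and 0.397% in the columns of VE 4 and 0.203% and 0.186% in those of VE 5. It was 0.00944% in column 1 of VE 3 and between 8.95e-04% and 0.0152% in the 5 WT columns. Gpr34 itself stood at 0.315%, 0.251%, 0.417%, 0.259% and 0.188% of its brain mean of 8637 TPM in those 5 VE columns, so its level was within the range of the other markers. Single markers spread from 0.0902% to 1.28% in those VE columns, and the highest WT value was 0.658%, for Olfml3. Siglech, a lectin of microglia and plasmacytoid dendritic cells, was for example at 0.838, 0.644 and 0.38 TPM in WT and at 3.55, 5.19 and 3.38 TPM in VE, and Serpine2, a protease inhibitor, at 0.0107, 0.0104 and 0 TPM in WT and at 1.04, 1.91 and 1.32 TPM in VE. The part of these markers in the rise of Gpr34 was not tested. Among markers that liver macrophages also express, the ADP receptor P2ry12 overlapped between groups, at 124, 110 and 118 TPM in WT and 83.0, 151 and 68.9 TPM in VE. Its relative P2ry13 lay wholly lower in VE, at 151, 134 and 114 TPM in WT and 101, 103 and 67.0 TPM in VE (log2 difference -0.57, adjusted p = 0.409).

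**Figure D2:**
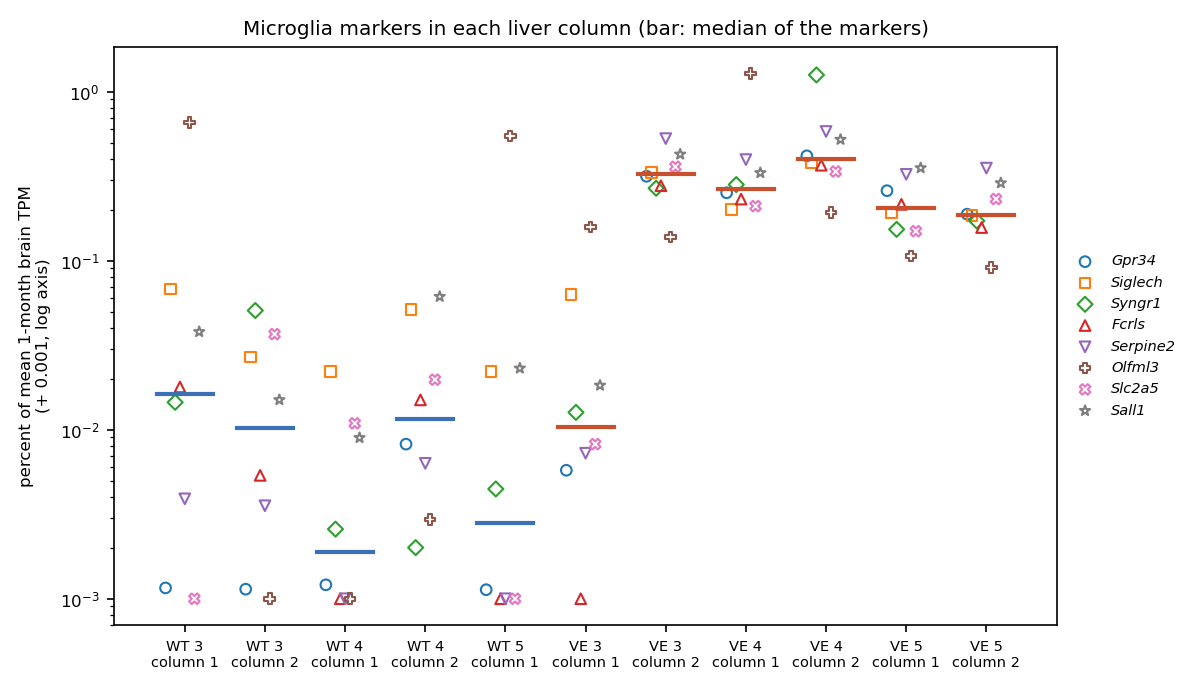
Level of 8 microglia markers (symbols) in each liver column as a percentage of the same gene's mean TPM in brain macrophages of 1 month, plus 0.001 (log axis), with the median of each column as a bar (WT blue, VE red). Without that constant, the medians of 5 of the 6 VE columns are 0.186 to 0.397%, and those of the WT columns and of column 1 of VE 3 are at or under 0.0152%. The 8 were picked from 16 markers after the values were seen. The criterion of under 1 TPM in liver WT by itself keeps the WT columns low. Of the 12 markers tested, 7 had a fitted difference below 0.

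Among the genes that fell, Rgs1 codes for a regulator that shortens signalling by G protein-coupled receptors, chemokine receptors included. Rgs1 was at 236, 232 and 272 TPM in WT and at 44.6, 77.9 and 65.3 TPM in VE (246 ± 22.1 against 62.6 ± 16.8 TPM, SD, n = 3 each). Every VE sample was lower than every WT sample, and the log2 fold change was -1.99 (SE 0.22, adjusted p = 0.0202; 0.136 with VE 3 from column 1 alone). Il18bp, the secreted protein that neutralises interleukin 18 and a Kupffer marker, was at 1235, 1149 and 1191 TPM in WT and at 612, 693 and 631 TPM in VE (1192 ± 42.7 against 645 ± 42.0 TPM, SD, n = 3 each). Its groups were the tightest of the 6 coding genes, and its log2 fold change was -0.89 (SE 0.11, adjusted p = 0.0311; 0.0672 with VE 3 from column 1 alone). Cd300ld2, of the CD300 family of myeloid surface receptors, was at 28.0, 25.4 and 29.2 TPM in WT and at 2.67, 2.01 and 0.456 TPM in VE. The groups were far apart on average (log2 fold change -3.50, SE 0.42, adjusted p = 0.0269; 0.123 with VE 3 from column 1 alone). A single WT 4 column was at 5.39 TPM, and the family has near-identical copies between which short reads can be split, so its value is uncertain. The calls were lost in 13 (Rgs1), 15 (Il18bp) and 14 (Cd300ld2) of 22 alternatives. Rgs1 lies on chromosome 1, 144242296 to 144249242, Il18bp on chromosome 7, 102014885 to 102018690, and Cd300ld2 on chromosome 11, 115010335 to 115016193, all on the minus strand.

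The other 10 called features are not known to code for protein. AI662270, a processed transcript on chromosome 11, 83223576 to 83226604, plus strand, fell from 222, 197 and 283 TPM in WT to 28.4, 43.2 and 47.6 TPM in VE, with no overlap (log2 fold change -2.55, SE 0.24, adjusted p = 0.0119; 0.0522 with VE 3 from column 1 alone). The small nucleolar RNA Snord89 fell from 17.8, 24.4 and 24.2 TPM in WT to 0.399 TPM in VE 3 and was listed at 0 in VE 4 and VE 5 (adjusted p = 0.0119). It was, with Mmp9, the gene that still passed with VE 3 from column 1 alone (adjusted p = 0.0192). Yet no VE column of Snord89 lay below every WT column, so a WT repeat column was listed at 0 as well. In the brain macrophages of the same age, Snord89 was lower in VE too, with a mean of 101 TPM in WT and 0.36 TPM in VE. The brain log2 difference in the joint limma fit was -6.21 (adjusted p = 9.75e-04). A difference between tissues was not shown (interaction test, adjusted p = 0.548). Gm14558, a processed pseudogene, fell from 11.9, 14.1 and 24.6 TPM to 0.451, 0.274 and 0.18 TPM (adjusted p = 0.0202; 0.0522 with VE 3 from column 1 alone). Snora31, Snora24 and a gene without an entry in the annotation (ENSMUSG00000073854) also fell. For Snora31, too, a WT repeat column was listed at 0, and no VE column lay below every WT column. The features n-R5s89, Gm22615, Mir1946a and Gm23713 rose, to between 4.11 and 19.9 TPM in the VE samples from 0 to 0.498 TPM in WT. With VE 3 from column 1 alone, where n-R5s89 was at 0.847 TPM against 18.1 TPM in column 2, its adjusted p was 0.44. On the same basis the adjusted p was 0.0522 for Gm22615 and ENSMUSG00000073854, 0.0672 for Snora24, 0.0881 for Gm23713 and 0.123 for Mir1946a and Snora31. Most of these genes are very short, and scaling by length turns few reads of a short gene into a large TPM, so their levels are less certain than those of the coding genes.

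**Figure D3:**
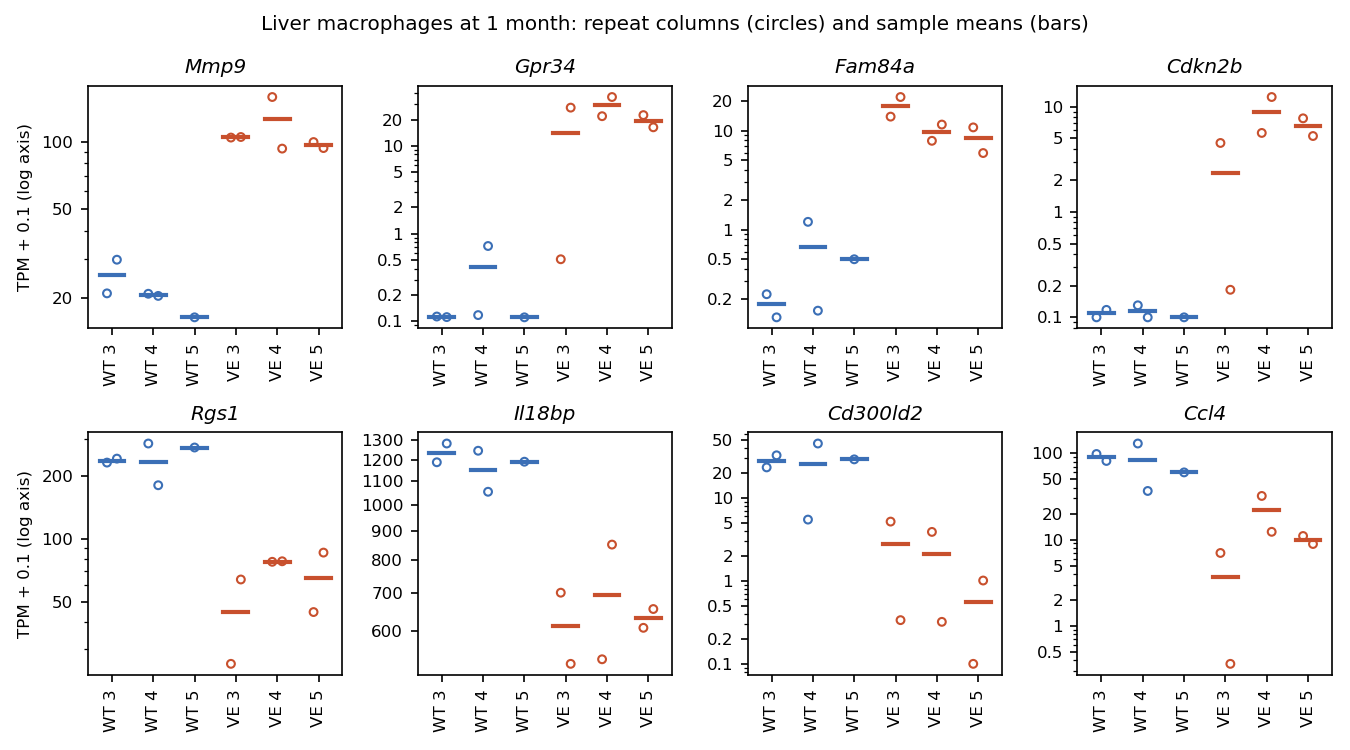
TPM + 0.1 (log axis) of 8 genes in the 6 liver samples, with repeat columns as circles, their mean as a bar, WT in blue and VE in red. Mmp9 and Fam84a are higher in every VE column than in every WT column, whereas for Gpr34 and Cdkn2b 1 column of VE 3 lies near WT.

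No gene of the MAPK cascade passed the adjusted threshold, although 5 of the 24 measured components lay wholly above WT in VE and 2 wholly below (5 and 0 with VE 3 from column 1 alone), with a median log2 difference of 0.17. Over all genes, 7.74% lay wholly above WT and 8.87% wholly below. Braf itself was at 3.12, 2.32 and 2.18 TPM in WT and at 5.80, 5.80 and 8.32 TPM in VE, with no overlap of samples (log2 difference 1.10, SE 0.38, adjusted p = 0.373). Of the 6 VE columns, 3 lay above all WT columns, and VE 5 was at 14.7 TPM in column 1 and 1.95 TPM in column 2. The log2 difference was 1.561 with the first repeat columns and 0.361 with the second. Summed over both alleles, these values do not show which allele was transcribed, so they do not check the mutation label. Braf lies on chromosome 6, 39603237 to 39725463, minus strand. Mapk3, which codes for the kinase ERK1 at the end of the cascade, was at 16.4, 25.3 and 15.99 TPM in WT and at 28.6, 34.5 and 28.7 TPM in VE (log2 difference 0.67, adjusted p = 0.432). Of 25 transcriptional targets of the cascade, 13 passed the filter on low values, 3 lay wholly above WT and 1 wholly below (3 and 0 with VE 3 from column 1 alone). Etv5, an ETS factor that ERK induces, was at 13.1, 13.5 and 17.5 TPM in WT and at 24.5, 24.2 and 27.5 TPM in VE, again with no overlap (log2 difference 0.76, adjusted p = 0.368). Ccnd1, cyclin D1, was at 7.36, 9.47 and 10.6 TPM in WT and at 15.4, 17.2 and 18.7 TPM in VE, and all 6 VE columns were above all WT columns (log2 difference 0.84, SE 0.30, adjusted p = 0.385). The target below WT was Etv1, another ETS factor, at 5.72, 5.63 and 10.3 TPM in WT and 4.97, 2.40 and 5.23 TPM in VE (log2 difference -0.67, adjusted p = 0.635). Plaur, the urokinase receptor, was higher in every VE sample too, but mostly through VE 4 (11.4, 5.46 and 10.1 TPM against 19.6, 71.8 and 11.9 TPM; adjusted p = 0.435). By contrast, the feedback phosphatase Dusp6, named here after its values were seen, overlapped between groups at 60.4, 50.6 and 71.1 TPM in WT and 66.6, 88.3 and 44.2 TPM in VE. The targets Dusp4, Dusp5, Spry1, Spry2, Spry4, Etv4, Fosl1, Egr3 and Phlda1 were below the filter of 1 TPM in 3 of the 6 samples. Most Dusp and Sprouty feedback genes could therefore not be tested.

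Inhibitors and drivers of the cell cycle gave higher VE values in single genes without a shift of the lists. Of 25 inhibitors and senescence-related genes, 20 were tested, 3 lay wholly above WT and none wholly below (all genes: 7.74% and 8.87%), and the median log2 difference was -0.08. Cdkn2b, which codes for the CDK4/6 inhibitor p15, was at 0.00888 and 0.0151 TPM in WT 3 and WT 4, listed at 0 in WT 5, and at 2.26, 8.92 and 6.42 TPM in VE (log2 difference 2.62, SE 0.48, adjusted p = 0.152). VE 3 was at 4.43 TPM in column 1 and at 0.0827 TPM in column 2, and with column 1 alone the adjusted p was 0.0839. Cdkn2b lies on chromosome 4, 89306299 to 89311039, minus strand. Cdkn1a, which codes for p21, was at 1.88, 5.90 and 3.32 TPM in WT and at 6.79, 18.4 and 7.25 TPM in VE (adjusted p = 0.419). Rb1, the retinoblastoma protein that these inhibitors keep active, was at 7.71, 4.91 and 16.4 TPM in WT and at 16.5, 20.4 and 18.6 TPM in VE, with VE 3 only just above WT 5 (adjusted p = 0.443). The columns of VE 5 were at 34.0 and 3.22 TPM for Rb1. Of 30 proliferation genes, 28 were tested, with 3 wholly above WT, 1 wholly below (3 and 0 with VE 3 from column 1 alone) and a median log2 difference of 0.06. The S phase genes Rrm2 (3.75, 1.19 and 0.122 TPM in WT; 20.8, 6.94 and 5.91 TPM in VE; adjusted p = 0.31) and Ccne2 (2.28, 0.586 and 1.74 TPM in WT; 5.56, 5.33 and 5.26 TPM in VE; adjusted p = 0.326) were higher in each VE sample. By column, VE 5 was at 11.7 and 0.0856 TPM for Rrm2, the second below every WT column. VE 4 was at 10.1 and 0.571 TPM for Ccne2. The mitotic cyclin Ccnb2 was lower in each, at 23.6, 34.5 and 19.4 TPM in WT and 15.05, 15.6 and 6.40 TPM in VE (adjusted p = 0.405). Mki67, the common marker of cycling cells, overlapped between groups at 2.11, 1.88 and 0.764 TPM in WT and 3.31, 0.426 and 2.26 TPM in VE, and it too was named after its values were seen.

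The matrix proteases and their inhibitors, with Mmp9 counted among them, leaned higher in VE. Of 21 genes, 13 were tested. At an unadjusted p under 0.05, 5 were higher in VE and 1 lower, against 4.02% and 6.55% of all genes. The median log2 difference of 0.33 was the largest positive one among the lists of macrophage functions. Adam9, a membrane sheddase, was at 8.66, 13.6 and 10.8 TPM in WT and at 19.9, 24.0 and 14.8 TPM in VE (log2 difference 0.77, adjusted p = 0.437). Timp3, a matrix-bound inhibitor of such proteases that was named after its values were seen, was low but without overlap, at 0.545, 0.324 and 0.894 TPM in WT and 2.85, 1.81 and 1.30 TPM in VE (adjusted p = 0.459). Adam15, another sheddase, was at 0.832, 0.19 and 0.855 TPM in WT and at 4.20, 2.34 and 3.73 TPM in VE, yet VE 3 was at 0.116 TPM in column 1 and at 8.28 TPM in column 2. With VE 3 from column 1 alone, 3 genes of the list, Mmp9 included, had an unadjusted p under 0.05 with the higher level in VE.

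The Kupffer identity genes leaned lower in VE without being lost. Of 25, 24 were tested, and the median log2 difference was -0.26. At an unadjusted p under 0.05, 9 were lower in VE and 2 higher, against 6.55% and 4.02% of all genes. Il18bp, above, was the list's call. Vsig4, the complement receptor with which Kupffer cells catch blood-borne bacteria, was at 5569, 5601 and 6030 TPM in WT and at 3658, 4942 and 3882 TPM in VE (log2 difference -0.47, SE 0.13, adjusted p = 0.294). Timd4, a phosphatidylserine receptor for dying cells, was at 721, 663 and 587 TPM in WT and at 479, 470 and 330 TPM in VE (log2 difference -0.64, SE 0.17, adjusted p = 0.294). Neither gene overlapped between groups. Spic, the transcription factor of iron-recycling macrophages, was at 321, 234 and 217 TPM in WT and at 182, 176 and 139 TPM in VE (adjusted p = 0.337). Cd163, the receptor for haemoglobin bound to haptoglobin, was at 52.7, 61.5 and 51.2 TPM in WT and at 37.9, 35.9 and 36.1 TPM in VE (adjusted p = 0.37). The opposite order was seen for Cd5l, a secreted scavenger protein named after its values were seen, at 1563, 1956 and 1756 TPM in WT and 2154, 2535 and 2163 TPM in VE (log2 difference 0.38, adjusted p = 0.355). In bulk samples fewer cells of a type and less RNA per cell cannot be told apart. Of 24 genes of haem and iron handling, 23 were tested, 3 lay wholly below WT and none wholly above (all genes: 8.87% and 7.74%), with a median of -0.07.

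Genes shared by most macrophages and genes of phagocytosis also leaned lower. The lists share members, so their counts are not separate observations. Vsig4, for example, is in the Kupffer, phagocytosis and complement lists, and Timd4 in the Kupffer and phagocytosis lists. Likewise C1qc is in the pan-macrophage and complement lists, and Cd68 in the pan-macrophage and lysosome lists. Of 27 pan-macrophage genes, all tested, 5 had an unadjusted p under 0.05 with the lower level in VE and none with the higher (median -0.15). Among 22 tested genes of phagocytosis, 6 did so in the lower and 1 in the higher direction (median -0.24). The shares of all genes were 6.55% in the lower and 4.02% in the higher direction. Cd68, a lysosomal membrane glycoprotein of macrophages, was at 1702, 1552 and 1757 TPM in WT and at 759, 1095 and 731 TPM in VE (log2 difference -0.98, SE 0.16, adjusted p = 0.127). Cd14, the co-receptor for endotoxin, was at 360, 279 and 513 TPM in WT and at 151, 244 and 230 TPM in VE (log2 difference -0.87, adjusted p = 0.321). The groups did not overlap for either gene, and VE 4 was the VE sample nearest to WT in both. Stab2, a hyaluronan scavenger receptor that liver sinusoidal endothelium expresses strongly, was at 79.3, 42.8 and 43.6 TPM in WT and at 17.8, 29.4 and 13.002 TPM in VE (adjusted p = 0.264). The summed liver endothelial markers, at 305 to 645 TPM in WT and 263 to 357 TPM in VE, overlapped between groups, and their part in the Stab2 value was not tested. Cd36, a scavenger receptor for oxidised lipoprotein and fatty acids, went the other way, at 40.0, 23.1 and 28.6 TPM in WT and 44.5, 87.8 and 52.1 TPM in VE (log2 difference 0.96, adjusted p = 0.352).

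Lysosomal genes showed the same order over a larger list. Of 33, all tested, 24 had a fitted difference below 0, against 51.8% of all genes, and the median was -0.19. At an unadjusted p under 0.05, 11 were lower in VE and 1 higher, against 6.55% and 4.02% of all genes. With VE 3 from column 1 alone these were 9 and 1, with a median of -0.12. The summed level was 19172 to 20107 TPM in WT and 13830 to 17282 TPM in VE. Ctsc, the protease that activates granule serine proteases, was at 2599, 2188 and 2499 TPM in WT and at 1421, 1737 and 1190 TPM in VE (log2 difference -0.76, SE 0.15, adjusted p = 0.184). Asah1, acid ceramidase, was at 536, 509 and 561 TPM in WT and at 299, 356 and 225 TPM in VE (log2 difference -0.89, SE 0.18, adjusted p = 0.183). In both, the sample VE 4 again lay highest among the VE samples. Lipa, the acid lipase that frees cholesterol from lipoproteins, was at 230, 184 and 163 TPM in WT and at 83.5, 135 and 72.9 TPM in VE (adjusted p = 0.26). Lamp1, a main glycoprotein of the lysosomal membrane, also named after its values were seen, was at 846, 987 and 959 TPM in WT and at 599, 777 and 589 TPM in VE (adjusted p = 0.30). The gene of unadjusted p under 0.05 with the higher level was Cd63, a tetraspanin that endosomes and exosomes carry, at 16.6, 10.5 and 4.53 TPM in WT and 18.6, 43.7 and 66.8 TPM in VE, although VE 3 was at 35.2 TPM in column 1 and at 1.93 TPM in column 2 (adjusted p = 0.30).

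**Figure D4:**
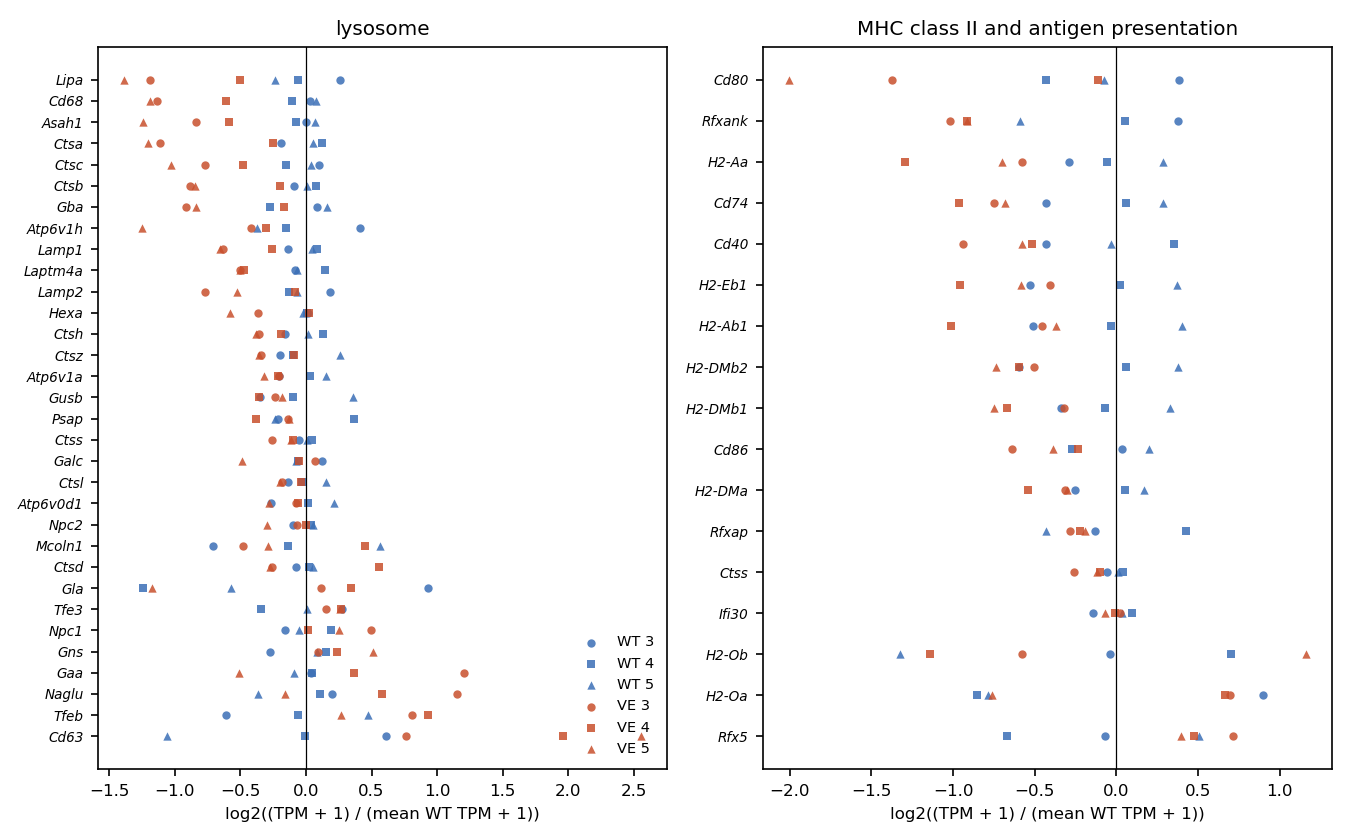
Tested genes of the lysosome (left, with 1 of the 33 not shown) and of MHC class II antigen presentation (right), 1 gene a line ordered by fold change, with each of the 6 liver samples as a point at the log2 ratio of its TPM + 1 to the mean WT TPM + 1. The fitted difference is below 0 for 24 of 33 lysosomal and 14 of 17 class II genes, and VE 4 (red squares) lies nearest to WT for many lysosomal genes but not for H2-Aa or Cd74.

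The list with the lowest median among macrophage functions was MHC class II antigen presentation. Of 19 genes, 17 were tested, 14 had a fitted difference below 0 (all genes: 51.8%), and the median was -0.55. At an unadjusted p under 0.05, 7 were lower in VE and none higher, against 6.55% and 4.02% of all genes. With VE 3 from column 1 alone the count was 3 and the median -0.39. Cd74, the invariant chain that holds the peptide groove closed, was at 6733, 9443 and 11040 TPM in WT and at 5409, 4655 and 5645 TPM in VE (log2 difference -0.77, SE 0.17, adjusted p = 0.221). H2-Aa, the alpha chain of I-A, was at 3667, 4299 and 5469 TPM in WT and at 2997, 1826 and 2761 TPM in VE (log2 difference -0.84, SE 0.21, adjusted p = 0.26). Neither gene overlapped between groups, but WT 3 was the lowest WT sample for both. The beta chains and H2-DMb1, named after their values were seen, overlapped, because WT 3 lay below some VE samples. H2-Ab1, the beta chain of I-A, was at 1697, 2365 and 3199 TPM in WT and 1766, 1197 and 1870 TPM in VE. H2-Eb1, the beta chain of I-E, was at 313, 459 and 586 TPM in WT and at 341, 233 and 302 TPM in VE. H2-DMb1, of the complex that loads peptides, was at 272, 328 and 434 TPM in WT and at 276, 217 and 205 TPM in VE, and shares reads with its near-identical neighbour H2-DMb2, so its level is uncertain. B cells, which carry class II as well, had marker sums of 73.7 to 307 TPM in WT and 44.2 to 336 TPM in VE, and their part in these values was not tested.

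The promoters of class II genes share short boxes, of which the CCAAT box binds the factor NF-Y. Windows of 250 bases upstream of the annotated start were read from RefSeq (GRCm38.p6), which held 8 of the 9 class II genes looked up, 9 windows in all, since H2-DMa had 2. CCAAT was found on either strand in 8 of the 9, all but that of the first H2-DMa start, against 33.85% of 32851 windows of that length. The second H2-DMa window is counted among the 8, although the bases that follow it were not found in an annotated transcript of that gene. Of the called coding genes, 1 of 6 was found there (Il18bp). Its RefSeq start differs from the GENCODE M21 start. The Il18bp window therefore lies within the gene position given above, which ends at 102018690, and is upstream only of the RefSeq start. The windows of 3 class II genes are shown to set the box beside its different neighbours, and that of Il18bp because it is the called gene that was found. Capitals mark CCAAT or its reverse complement ATTGG, the AP-1 site TGANTCA (6.75% of windows) and the cAMP response element TGACGTCA (1.55% of windows), searched on both strands. At first, 10 motifs were searched under 21 gene symbols, with H2-Eb2, H2-DMb2, H2-Oa and H2-Ob not among them. The motifs and windows shown were chosen after the matches were seen.
H2-Aa, chr17:34287824-34288073, minus strand: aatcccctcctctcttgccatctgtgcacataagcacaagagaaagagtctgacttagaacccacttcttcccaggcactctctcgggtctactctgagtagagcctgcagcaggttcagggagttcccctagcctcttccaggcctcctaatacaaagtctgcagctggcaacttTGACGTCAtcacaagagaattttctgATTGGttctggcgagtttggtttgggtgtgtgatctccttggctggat
H2-Eb1, chr17:34305617-34305866, plus strand: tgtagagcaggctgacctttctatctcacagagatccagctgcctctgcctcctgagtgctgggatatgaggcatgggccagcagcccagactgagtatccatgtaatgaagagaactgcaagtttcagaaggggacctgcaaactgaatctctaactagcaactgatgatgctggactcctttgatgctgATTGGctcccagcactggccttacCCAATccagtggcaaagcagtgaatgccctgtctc
H2-DMb1, chr17:34152941-34153190, plus strand: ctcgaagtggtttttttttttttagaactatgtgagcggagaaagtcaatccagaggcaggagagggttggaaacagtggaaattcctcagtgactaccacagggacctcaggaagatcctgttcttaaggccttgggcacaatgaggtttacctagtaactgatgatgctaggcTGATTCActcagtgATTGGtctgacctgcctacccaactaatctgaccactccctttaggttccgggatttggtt
Il18bp, chr7:102018233-102018482, minus strand: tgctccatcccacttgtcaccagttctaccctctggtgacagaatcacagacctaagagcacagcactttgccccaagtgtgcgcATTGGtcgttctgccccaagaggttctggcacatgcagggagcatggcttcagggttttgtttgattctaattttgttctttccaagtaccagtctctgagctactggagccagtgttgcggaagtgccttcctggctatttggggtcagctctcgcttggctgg
H2-Aa holds the cAMP response element and 1 CCAAT, H2-Eb1 holds 2 CCAAT boxes in opposite orientations, and H2-DMb1 holds 1 AP-1 site beside 1 CCAAT. Il18bp holds 1 CCAAT. A match describes the letters of a window and shows neither binding nor a cause of the levels.

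MHC class I gave no common direction. All 14 genes were tested, and the median was -0.09. At an unadjusted p under 0.05, 2 were higher in VE and 1 lower, against 4.02% and 6.55% of all genes. B2m, the light chain of class I, was at 9926, 9779 and 9604 TPM in WT and at 7761, 8034 and 7600 TPM in VE, tight groups without overlap (log2 difference -0.33, SE 0.08, adjusted p = 0.271). Nlrc5, the class I transactivator, was at 7.95, 8.33 and 7.64 TPM in WT and at 17.99, 12.4 and 22.8 TPM in VE (log2 difference 1.02, adjusted p = 0.339). Tap1, the peptide transporter that Nlrc5 controls, was at 8.17, 13.6 and 9.67 TPM in WT and at 26.3, 15.8 and 20.2 TPM in VE (adjusted p = 0.385). Both lay above WT, whereas B2m lay below.

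Among cytokines and chemokines, the largest differences were lower in VE. Of 31 genes, 24 were tested, and the median was -0.09. At an unadjusted p under 0.05, 6 were lower in VE and 2 higher, against 6.55% and 4.02% of all genes. Ccl4, a chemokine that recruits lymphocytes and monocytes, was at 89.8, 83.2 and 60.0 TPM in WT and at 3.58, 22.1 and 9.84 TPM in VE, and all 6 VE columns lay below all WT columns (log2 difference -2.89, SE 0.52, adjusted p = 0.152). Its neighbour Ccl3 was at 65.6, 34.2 and 39.7 TPM in WT and at 19.9, 8.79 and 23.9 TPM in VE (log2 difference -1.41, adjusted p = 0.30). Il1a, the alarmin interleukin 1 alpha, was at 272, 204 and 211 TPM in WT and at 90.2, 138 and 52.2 TPM in VE (log2 difference -1.38, SE 0.32, adjusted p = 0.221). The groups were apart for all 3 genes. Ccl12, a monocyte attractant, was higher in VE, at 19.9, 21.8 and 19.1 TPM in WT and 44.0, 43.6 and 33.5 TPM in VE (log2 difference 0.95, SE 0.23, adjusted p = 0.252). Of 20 NF-kB response genes, 16 were tested, 4 lay wholly below WT and none wholly above (median -0.45), against 8.87% and 7.74% of all genes. With VE 3 from column 1 alone 2 lay wholly below. Cd83, a marker of activated antigen-presenting cells, was at 79.1, 57.5 and 118 TPM in WT and at 24.5, 38.03 and 42.2 TPM in VE (adjusted p = 0.264).

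The counts of complement genes leaned lower in VE, and those of interferon-stimulated genes depended on column 2 of VE 3. All 26 interferon-stimulated genes were tested, 6 lay wholly below WT and none wholly above, and the median was -0.17. With VE 3 from column 1 alone 2 of the 26 lay wholly below, near the 8.2% of all genes that did. Ifit3, an antiviral RNA-binding protein, was at 145, 242 and 156 TPM in WT and at 132, 72.7 and 93.9 TPM in VE (log2 difference -0.86, adjusted p = 0.337). Of 23 complement genes, 20 were tested, 9 lay wholly below WT and 1 wholly above (all genes: 8.87% and 7.74%), and the median was -0.33. C3ar1, the receptor for the anaphylatoxin C3a, was at 85.9, 80.5 and 104 TPM in WT and at 44.8, 42.2 and 64.3 TPM in VE (log2 difference -0.84, adjusted p = 0.285). Serping1, the C1 inhibitor, was at 9.08, 6.48 and 14.5 TPM in WT and at 0.481, 1.55 and 4.001 TPM in VE (log2 difference -1.98, adjusted p = 0.294). Hepatocytes make much of the body's complement, and their markers were also lower in VE, with a list median of -0.91. Their part in the complement values was not tested.

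Lists of metabolism and tissue signals gave medians near 0. Of 34 genes of lipid metabolism, 30 were tested, 3 lay wholly above WT and 3 wholly below (median -0.02), against 7.74% and 8.87% of all genes. Pparg, the nuclear receptor of lipid uptake, was at 12.6, 14.1 and 21.8 TPM in WT and at 5.03, 4.65 and 5.86 TPM in VE (log2 difference -1.44, adjusted p = 0.236). The columns of each VE sample disagreed, at 9.96 and 0.091 TPM (VE 3), 0.0627 and 9.24 TPM (VE 4) and 11.4 and 0.348 TPM (VE 5). The WT columns were at 9.32 to 21.8 TPM, so the higher VE columns reached or neared the WT range. Of 20 genes of lipid-associated macrophages, 16 were tested. Against 4.02% of all genes, 3 of them had an unadjusted p under 0.05 with the higher level in VE. These were Cd36 and Cd63, above, and Lgals1, galectin 1, at 77.7, 67.7 and 76.5 TPM in WT and 112, 145 and 84.3 TPM in VE (adjusted p = 0.409). Of 22 genes of the CSF1 and TGF-beta pathways, on which Kupffer cells depend, 20 were tested, none lay wholly above WT and 2 wholly below (median 0.10). The 2 of 20 are near the 8.87% of all genes that lay wholly below. The respiratory chain had medians of -0.02 over 26 nuclear genes and 0.10 over 13 mitochondrial genes. Of the nuclear genes 5 lay wholly above WT and 2 wholly below (5 and 0 with VE 3 from column 1 alone). Of all genes, 4.02% had an unadjusted p under 0.05 with the higher level in VE and 6.55% with the lower. Of the mitochondrial genes 4 did so in the higher and 1 in the lower direction (3 and 1 with VE 3 from column 1 alone). The highest of these by fold was mt-Nd2, a subunit of complex I, at 3769, 3551 and 2877 TPM in WT and 4890, 4179 and 7499 TPM in VE (log2 difference 0.66, SE 0.21, adjusted p = 0.337).

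**Figure D5:**
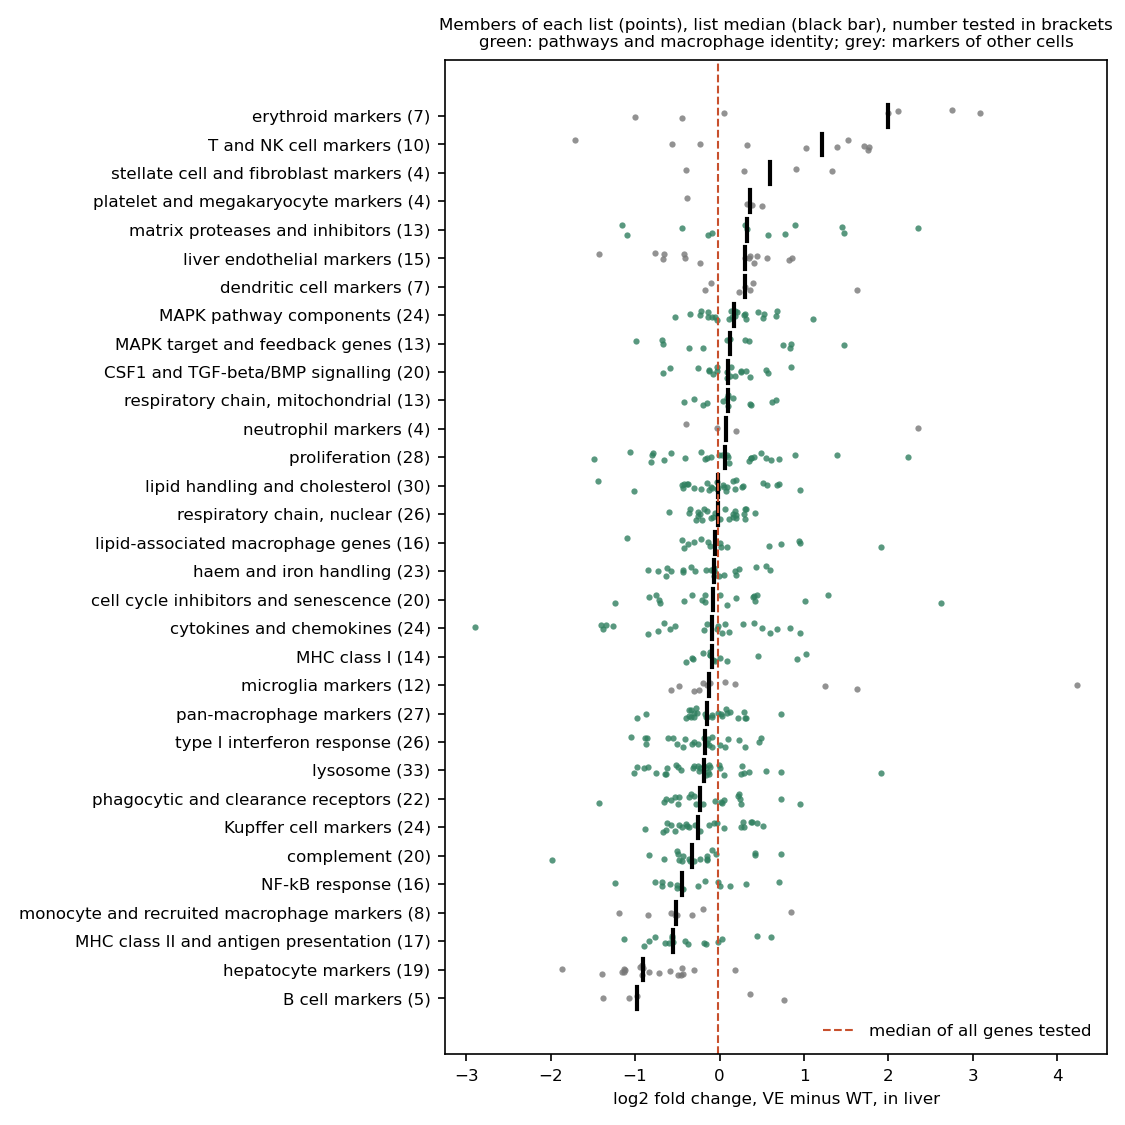
Log2 fold change, VE minus WT, of the tested members of each list (points), with the list's median as a black bar and the median of all genes as a dashed line (-0.02), for macrophage lists in green and markers of other cells in grey. MHC class II has the lowest median among the macrophage lists (-0.55) and matrix proteases the highest (0.33).

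Outside the lists, genes with large differences and groups apart mostly had low levels. Ccr1l1, a receptor related to the chemokine receptor Ccr1, was at 18.4, 7.42 and 5.74 TPM in WT and at 0.143, 0.0280 and 0.0402 TPM in VE, just short of the threshold (log2 difference -3.27, SE 0.48, adjusted p = 0.0597). Its WT 4 columns differed widely, at 14.6 and 0.195 TPM. Haao, an enzyme of tryptophan breakdown, was at 13.4, 14.6 and 7.64 TPM in WT and at 1.27, 1.41 and 1.37 TPM in VE (log2 difference -2.41, SE 0.40, adjusted p = 0.127). Zfp433, a zinc finger protein, was at 7.86, 12.6 and 14.5 TPM in WT and at 2.24, 1.36 and 0.45 TPM in VE (adjusted p = 0.154). Armc6 was higher in all 6 VE columns than in all WT columns, at 0.144, 0.347 and 1.46 TPM in WT and 6.43, 4.06 and 5.08 TPM in VE. None of these passed the threshold.

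Markers of further cell types were summed in each sample. Monocyte and recruited macrophage markers came to 798 to 1140 TPM in WT and 443 to 887 TPM in VE, and 8 of 16 were tested, none of them wholly apart. T and NK cell markers came to 38.2 to 174 TPM in WT and 52.4 to 164 TPM in VE. Dendritic cell markers were at 298 to 370 TPM in WT and at 308 to 406 TPM in VE. Each of these ranges overlapped between genotypes. Stellate cell and fibroblast markers were at 38.7 to 72.4 TPM in WT and at 69.5 to 81.3 TPM in VE. Erythroid markers came to 7637 TPM in VE 3, from 109 TPM in column 1 and 15164 TPM in column 2, against 61.3 to 153 TPM in the other 5 samples.

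The brain macrophages of 1 month (3 VE and 2 WT samples, from mice described with the same alleles) allowed a test of whether the V600E difference was the same in both tissues. The liver difference (VE minus WT) was above the brain difference for 39 genes (0.258% of 15123) and below it for 11 (0.0727%). That made 50 in all (0.331%) at an adjusted p of 0.05. These counts go by sign, so a gene with a larger fall in liver than in brain counts among the 11. Of the coding genes called in liver, Gpr34 passed this test, with a log2 difference that was 4.44 larger in liver (SE 0.42) and an adjusted p of 0.00625. The called genes were picked by their liver values, which the test uses again, so it is not separate support. Gpr34 was at 7230 to 9413 TPM in the brain samples and at or under 28.8 TPM in the liver samples. The test thus sets a change near the floor against a gene of high level. For Fam84a (larger by 3.20, adjusted p = 0.0539) and Mmp9 (larger by 2.41, adjusted p = 0.197) a difference between tissues was not shown, although both were near 0 in all brain samples. Ccl4 lay on opposite sides of WT, lower in liver VE as above and with a brain mean of 360 TPM in WT and 1003 TPM in VE, but the difference between tissues did not pass (-4.61, adjusted p = 0.0967). The brain samples spread more than the liver samples, so these p-values are approximate, and the count rested on single samples. It was 121, 99 and 126 without brain VE 3, 4 and 5, 199 and 248 without brain WT 4 and 5, 7, 1 and 14 without liver VE 3, 4 and 5, and 7, 1 and 21 without liver WT 3, 4 and 5. With sample weights no gene passed.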

How the data were processed

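RNA of sorted macrophages was amplified with the SMART-seq V4 kit, which does not mark strand, and read as 50 bp pairs, per the labels' protocols. The authors deposited TPM per gene. STAR, mm10 and GRCh38 are named in the submitters' processing notes, without a role. Repeat columns were averaged per sample. Genes of at least 1 TPM in 3 of the 6 liver samples (11928) were tested on log2(TPM + 1) with limma 3.58.1 (trend, R 4.3.3), with Benjamini-Hochberg adjustment over all of them. The tissue comparison used a joint fit of 11 samples. The procedure was tested on simulated data. With group means removed, samples of the same replicate number were nearly uncorrelated over the genes tested (0.036, -0.0147 and 0.0113), so no block was used. Such correlations cannot exclude a shared batch. The samples and gene lists were chosen with earlier results of these data known. Genes were named by rule: Braf and Csf1r, all called genes, the coding genes of largest fold change with groups apart and at least 5 TPM in the higher group, up to 4 members of smallest p with groups apart in each list, and the most abundant markers of other cells. Lamp1, Timp3, Cd5l, H2-DMb1, Dusp6, Spry1, Spry2, Mki67, H2-Ab1, H2-Eb1, Siglech, Serpine2, Clec4f, P2ry12 and Hbb-bs were added after their values were seen. The single values of 1 lysosomal gene are not reported here. Library depth is unknown from TPM.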

Additional observations from a re-analysis of the deposited data

Results flagged for a closer look

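Among the genes called in liver, 4 had a V600E difference that was not the same in liver and brain by the interaction test of the joint limma fit. They had been picked by their liver values, which this test uses again, so it is not separate support. The Gpr34 difference was 4.44 larger in liver (log2, SE 0.42) with an adjusted p of 0.00625, while column 1 of VE 3 was near WT. That of the rRNA feature n-R5s89 was 4.19 larger (SE 0.62, adjusted p = 0.0259), and it too rested on column 2 of VE 3, at 18.1 TPM against 0.847 TPM in column 1, with a liver adjusted p of 0.44 without it. For Gm14558, a processed pseudogene, liver minus brain was -3.72 (SE 0.58, adjusted p = 0.0291). For ENSMUSG00000073854, which has no entry in the annotation, it was -3.83 (SE 0.64, adjusted p = 0.0382). Gm14558 was listed at 0 in every brain column, ENSMUSG00000073854 was at or under 0.263 TPM and n-R5s89 at or under 1.94 TPM. With so little in brain, their interaction mostly restates the liver difference. With sample weights the interaction test passed no gene.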

How the results depend on the processing

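The count of 16 adjusted calls was not stable. It was 7 in a joint fit with brain, 17 with sample weights, 12 with a robust fit, 10 with a pseudocount of 0.1, 6 with 5, 8 with a filter of 5 TPM, 0 with no filter, 16 with either rescaling or without globin and hepatocyte genes, 0 with the first repeat column, 6 with the second, and 0 to 5 with a sample left out. Chosen after seeing the data, VE 3 from column 1 alone gave 2, or 7 with the filter recomputed, and a filter of 1 TPM in 2 of the 11 samples gave 0. With a replicate block 0 genes passed in liver and 1 in the tissue comparison, and whether the numbers mark a shared batch is not known. The 1261 genes of unadjusted p under 0.05 became 595 in the joint fit, 1984 with no filter and 835 with the second column. The 1981 genes with groups apart became 4500 with no filter and 2992 to 3565 with a sample left out, since fewer samples overlap less. The 50 genes of the tissue comparison became 0 with sample weights and 1 to 248 with a sample left out. Of 3100 values for 142 genes under 22 settings, 2868 kept direction and side of the threshold, 209 no longer passed, 1 newly passed and 22 changed sign, none of them of a gene past the threshold. With the second column the log2 difference became 1.878 for Igkc, -1.164 for Trbc2, -0.037 for Dusp6 and -0.011 for Mki67, and with the first it became 0.074 for Etv1 and -0.108 for Hba-a2. Hba-a2 was at -0.445 with VE 3 from column 1 alone under either filter, Mki67 at -0.019 with sample weights, and Csf3r at 0.011 and 0.012 with the rescalings. With a sample left out the ranges were -0.361 to 0.97 (Trbc2), -0.101 to 0.055 (Csf3r), -0.263 to 0.008 (Batf3), -0.172 to 3.235 (Hba-a2), -0.144 to 0.347 (Dusp6), -0.219 to 0.578 (Mki67) and -0.148 to 0.025 (Adgre1). The cause of these changes was not tested. Depth is unknown from TPM, so how far it limits low genes cannot be given.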
